A study of Mus musculus with 75 samples.

Results

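AM251 given to mice without cannabinoid receptor 1 (CB1) is described here in the epididymal white fat of lean animals, a tissue and genotype in which the drug's main target is missing. The members are 8 arrays of the series' 75: the 3 fat arrays labelled as chow-fed CB1-/- mice on AM251 (mice 20, 21 and 23) and the 5 labelled as chow-fed CB1-/- mice on vehicle (mice 15 to 19). They were chosen by their titles and not by any measured value. All 8 came from male mice of the C57BL/6 strain that lacked CB1, were fed regular chow with 13% of energy from fat for 14 weeks from 2 months of age, and were caged singly for 1 week before dosing. AM251 at 10 mg per kg, or vehicle, was gavaged at 5 in the afternoon for 2 days, with dissection at 10 on the morning of day 3. The groups set beside them are chow-fed wild-type mice on AM251 and vehicle (5 and 5 fat arrays), CB1-/- mice on a diet with 59.4% of energy from fat on AM251 and vehicle (5 and 3 fat arrays), and livers of chow-fed CB1-/- mice (5 and 5 arrays). The knockout is a deletion in every cell that was backcrossed for 10 generations, so nothing here separates fat from brain or gut as the site of an effect.

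CB1 is a receptor coupled to inhibitory G proteins that binds the lipid messengers anandamide and 2-arachidonoylglycerol. In adipocytes its activation lowers cyclic AMP and favours fat storage, and in the brain it promotes feeding. AM251 is an inverse agonist of CB1 that also binds other proteins at higher concentration, which is why a knockout arm serves as the control for effects without the receptor. Fat makes cholesterol through the mevalonate pathway and fatty acids from acetyl-CoA. Enzymes of both routes are driven by SREBP transcription factors and rise with feeding and insulin.

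Values are log2 intensities of 1 probe set per gene, and a difference of 1 is a doubling. Some adipocyte genes were bright and close in level across the 8 arrays. Adipoq, the hormone adiponectin, lay between 13.73 and 13.94, Fabp4 between 14.12 and 14.25, and Plin1, the perilipin of the lipid droplet, between 12.30 and 12.66. Other adipocyte genes differed more and are given below. Cnr1, the gene of CB1, read 6.15, 7.05, 7.13, 7.17 and 7.03 in the vehicle arrays (mice 15 to 19 in order) and 7.28, 6.81 and 7.33 in the AM251 arrays (mice 20, 21 and 23). Wild-type vehicle arrays gave 7.24 ± 0.56 (SD, n = 5) and knockout vehicle arrays 6.91 ± 0.43 (SD, n = 5). The location of this probe set with respect to the deletion is unknown, so it checks nothing about the knockout. Nnt is a gene whose coding sequence is broken in the C57BL/6J strain but not in C57BL/6N. It read 9.62, 8.68, 10.13, 9.76 and 8.75 in the vehicle arrays and 9.54, 9.60 and 10.22 in the AM251 arrays. The treatment groups overlapped, but vehicle arrays 16 and 19 lay below all the others.

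In this receptor-free fat 3 of 19147 genes passed the threshold (limma's moderated test, adjusted p under 0.05), which is 0.0157% of those tested, and all 3 rose: Fdps, Acacb and Tmem242. At an unadjusted p under 0.05 there were 1556 genes where chance gives 957, of which 620 were higher (3.24% of genes tested) and 936 lower (4.89%). Every AM251 array lay above every vehicle array in 391 genes (2.04%) and below in 682 (3.56%). The labels do not state outright that each numbered array is a separate animal, and p-values measure the spread between arrays.

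Fdps encodes farnesyl diphosphate synthase, the mevalonate pathway enzyme whose product feeds cholesterol synthesis and protein prenylation. Its level was 8.13, 9.05, 8.79, 8.81 and 8.55 in the vehicle arrays and 10.14, 9.92 and 10.15 in the AM251 arrays. The groups did not overlap, and the lowest AM251 array stood above the highest vehicle array. The log2 change was 1.40 ± 0.21 (SE), 2.65-fold, with an adjusted p of 0.00249. The AM251 mean of 10.07 ± 0.13 (SD, n = 3) was also above the mean of chow-fed wild-type vehicle arrays, 9.21 ± 0.38 (SD, n = 5).

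Acacb encodes acetyl-CoA carboxylase 2, which makes the malonyl-CoA that restrains fatty acid entry into mitochondria. It read 7.07, 6.83, 7.02, 7.29 and 6.85 under vehicle and 8.88, 8.63 and 8.79 under AM251, again without overlap. The log2 change was 1.75 ± 0.31 (SE), 3.37-fold, with an adjusted p of 0.0271. Vehicle-treated knockouts had a mean of 7.01 ± 0.19 (SD, n = 5), below the 8.06 ± 0.47 (SD, n = 5) of wild-type vehicle arrays. Tmem242, an inner mitochondrial membrane protein that helps assemble ATP synthase, read 9.14, 8.86, 8.70, 8.92 and 8.89 under vehicle and 9.76, 9.43 and 9.80 under AM251. Its groups did not overlap either, and the log2 change was 0.76 ± 0.14 (SE), 1.70-fold, with an adjusted p of 0.0325. The knockout vehicle mean of 8.90 ± 0.16 (SD, n = 5) lay below the wild-type vehicle mean of 9.51 ± 0.22 (SD, n = 5), and the AM251 mean of 9.67 ± 0.20 (SD, n = 3) lay near the latter.

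**Figure D1:**
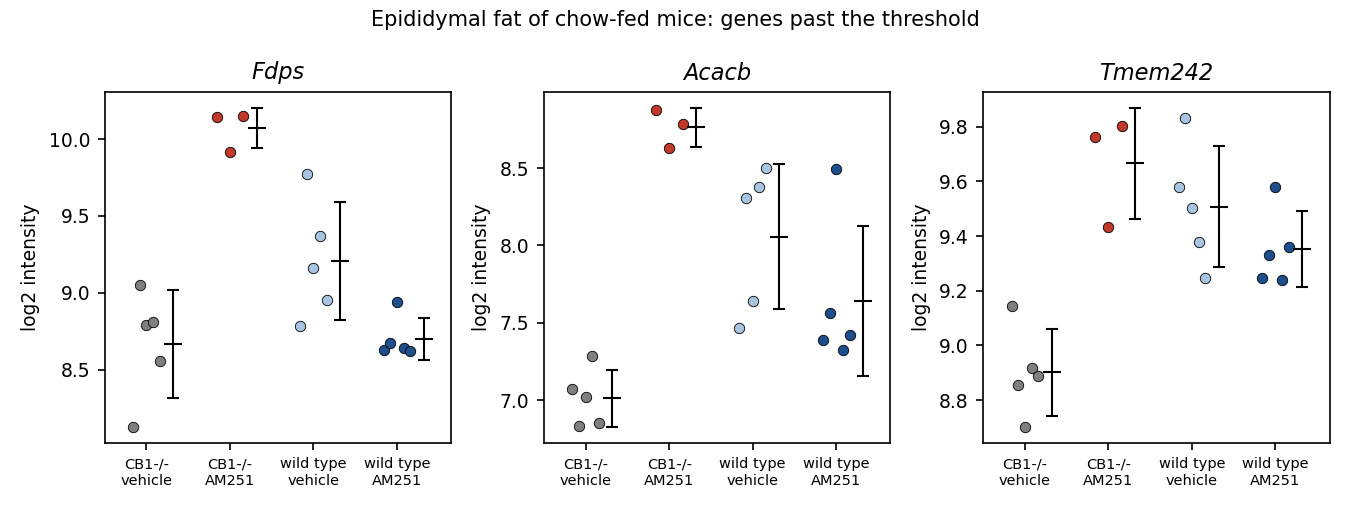
Log2 intensity of Fdps, Acacb and Tmem242 in each array of chow-fed fat; points are arrays and the bar beside them is the mean ± SD of 3 or 5 arrays. The 3 AM251 arrays of CB1-/- mice lie above all 5 vehicle arrays of that genotype for each gene, while the AM251 arrays of wild-type mice overlap their vehicle arrays.

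The letters in front of the starts of Acacb and Tmem242 are shown, since sterol and lipid genes are often controlled from there together with the CCAAT-box factor NF-Y. RefSeq promoter entries (build GRCm38.p6, the 250 bases before an annotated start) were found for these 2 genes. Fdps had no entry, so its start is not shown. The sterol enzymes Sc5d and Mvk, among the genes described below, are added as examples. Capitals mark the pentamer CCAAT on either strand (ATTGG on the strand shown). The Acacb stretch is chr5:114165268-114165517, plus strand. That of Tmem242 is chr17:5440261-5440510, minus strand. Sc5d is at chr9:42264301-42264550, minus strand, and Mvk at chr5:114444019-114444268, plus strand.
Acacb: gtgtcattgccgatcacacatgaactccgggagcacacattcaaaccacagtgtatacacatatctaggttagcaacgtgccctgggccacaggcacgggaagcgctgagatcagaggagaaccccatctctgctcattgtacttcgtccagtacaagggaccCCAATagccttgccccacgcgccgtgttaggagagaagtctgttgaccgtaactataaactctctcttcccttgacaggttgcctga
Tmem242: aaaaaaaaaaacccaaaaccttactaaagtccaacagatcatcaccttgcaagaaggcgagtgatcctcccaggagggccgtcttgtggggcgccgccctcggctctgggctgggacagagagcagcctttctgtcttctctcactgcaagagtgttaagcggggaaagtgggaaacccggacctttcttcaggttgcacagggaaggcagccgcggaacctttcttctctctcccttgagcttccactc
Sc5d: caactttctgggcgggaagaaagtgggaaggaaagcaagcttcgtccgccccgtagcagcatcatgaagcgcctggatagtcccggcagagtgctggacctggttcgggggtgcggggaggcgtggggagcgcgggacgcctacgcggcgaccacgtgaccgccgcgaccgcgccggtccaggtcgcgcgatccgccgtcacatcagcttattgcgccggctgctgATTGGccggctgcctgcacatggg
Mvk: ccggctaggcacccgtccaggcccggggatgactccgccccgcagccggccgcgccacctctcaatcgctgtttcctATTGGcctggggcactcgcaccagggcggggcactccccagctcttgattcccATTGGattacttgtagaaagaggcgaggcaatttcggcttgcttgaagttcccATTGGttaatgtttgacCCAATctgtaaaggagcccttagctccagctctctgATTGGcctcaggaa
The pentamer stood 1 time in front of Acacb, 0 times in front of Tmem242, 1 time in front of Sc5d and 5 times in front of Mvk. Over the measured cholesterol synthesis genes, 16 of 19 promoter entries (16 of 19 genes had an entry) held CCAAT on either strand, 84.2%, against 33.8% of all 32851 entries. Of the 23 entries of fatty acid and triglyceride synthesis genes 10 held it, 43.5%. TCACNCCAC on either strand, a form of the sterol regulatory element, was found in 1 of the 19 sterol entries (Hmgcs1) and in 1 of the 23 fatty acid entries (Mlxipl), against 1.05% of all entries. The motifs were searched separately and matches may share a base. A match describes letters and no binding.

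The 8 arrays were not alike in 2 respects that have no place in the labels. Averaged over the other 7, correlations between arrays ran from 0.987 to 0.993 and was lowest for vehicle arrays 15 and 19. These 2 were high in a number of genes picked here for that difference, with no list or test behind them. Cdh16, a cadherin, read 9.93 and 9.52 in vehicle arrays 15 and 19, 5.57, 7.30 and 6.05 in vehicle arrays 16, 17 and 18, and 8.03, 4.62 and 4.87 in the AM251 arrays. Cdh1 (E-cadherin) ranged from 4.88 to 9.17 under vehicle and from 4.24 to 7.57 under AM251, and Epcam from 5.11 to 7.92 and from 5.28 to 6.69, so both groups held high and low arrays. Bex1, Slc7a9 and Cldn2 stood highest in the pair, by 3.88, 3.74 and 3.70 over the other vehicle arrays. Array 15 was also the lowest of all 8 for Acly, Fasn, Acss2 and Elovl6, enzymes of fatty acid synthesis. Without arrays 15 and 19, Fdps had a log2 change of 1.19 (adjusted p = 0.0727), Tmem242 of 0.84 (adjusted p = 0.0727) and Acacb of 1.72 (adjusted p = 0.236), and 0 genes passed by limma, with 725 at an unadjusted p under 0.05. Leaving out single arrays also moved the count: 0 genes passed without AM251 array 23 (1223 at an unadjusted p under 0.05), and 1, Fdps, without vehicle array 17 or vehicle array 19. In a fit of these 8 arrays alone Acacb (adjusted p = 0.00042) and Rab5c (adjusted p = 0.0104) passed, and Fdps (adjusted p = 0.0612) and Tmem242 (adjusted p = 0.215) did not.

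The other pattern concerned Rab5c, a small GTPase of early endosomes, which stood low in some fat arrays and high in others. It read 9.20, 8.13, 7.68, 8.06 and 8.10 in the knockout vehicle arrays, 11.19, 10.71 and 11.06 in the knockout AM251 arrays, and between 10.66 and 11.48 in the 10 chow-fed wild-type arrays. High-fat-fed groups of the same treatment held both levels: in knockouts, vehicle array 44 read 8.09 beside 11.17 and 11.19, and AM251 array 50 read 8.05 beside values from 10.73 to 11.15. The treatment difference of 2.75 ± 0.77 (SE) in chow-fed knockouts had an adjusted p of 0.38. With the Rab5c level as a covariate, 57 other genes varied with it over the fat arrays at an adjusted p under 0.05, 30 in the same direction and 27 opposite. Acacb was one of them, with 0.26 per unit of Rab5c (adjusted p = 0.0174), as were Gprc5b (0.34, adjusted p = 6.89e-07), Kdelr1 (0.32, adjusted p = 6.89e-07), Chtf8 (0.29, adjusted p = 0.000155) and, in the opposite direction, Trappc3 (-0.47, adjusted p = 7.52e-09) and Hmox1 (-0.58, adjusted p = 0.00171). Fdps and Tmem242 were not (0.04, adjusted p = 0.852, and 0.10, adjusted p = 0.181).

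Rab5c did not overlap between the 2 groups, so the covariate also takes up part of the treatment. In that fit Fdps had a log2 change of 1.30 ± 0.25 (SE, adjusted p = 0.0682), Acacb of 1.03 ± 0.28 (SE, adjusted p = 0.201) and Tmem242 of 0.49 ± 0.14 (SE, adjusted p = 0.201). The estimate for Fdps was within its error of the one without the covariate, while those for Acacb and Tmem242 were 1.70 and 1.54 times smaller. The 2 genes that passed instead were F730311O21Rik at -0.87 and Fbxo8, an F-box protein, at 0.56 (both adjusted p = 0.0367), named after their values were seen.

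**Figure D2:**
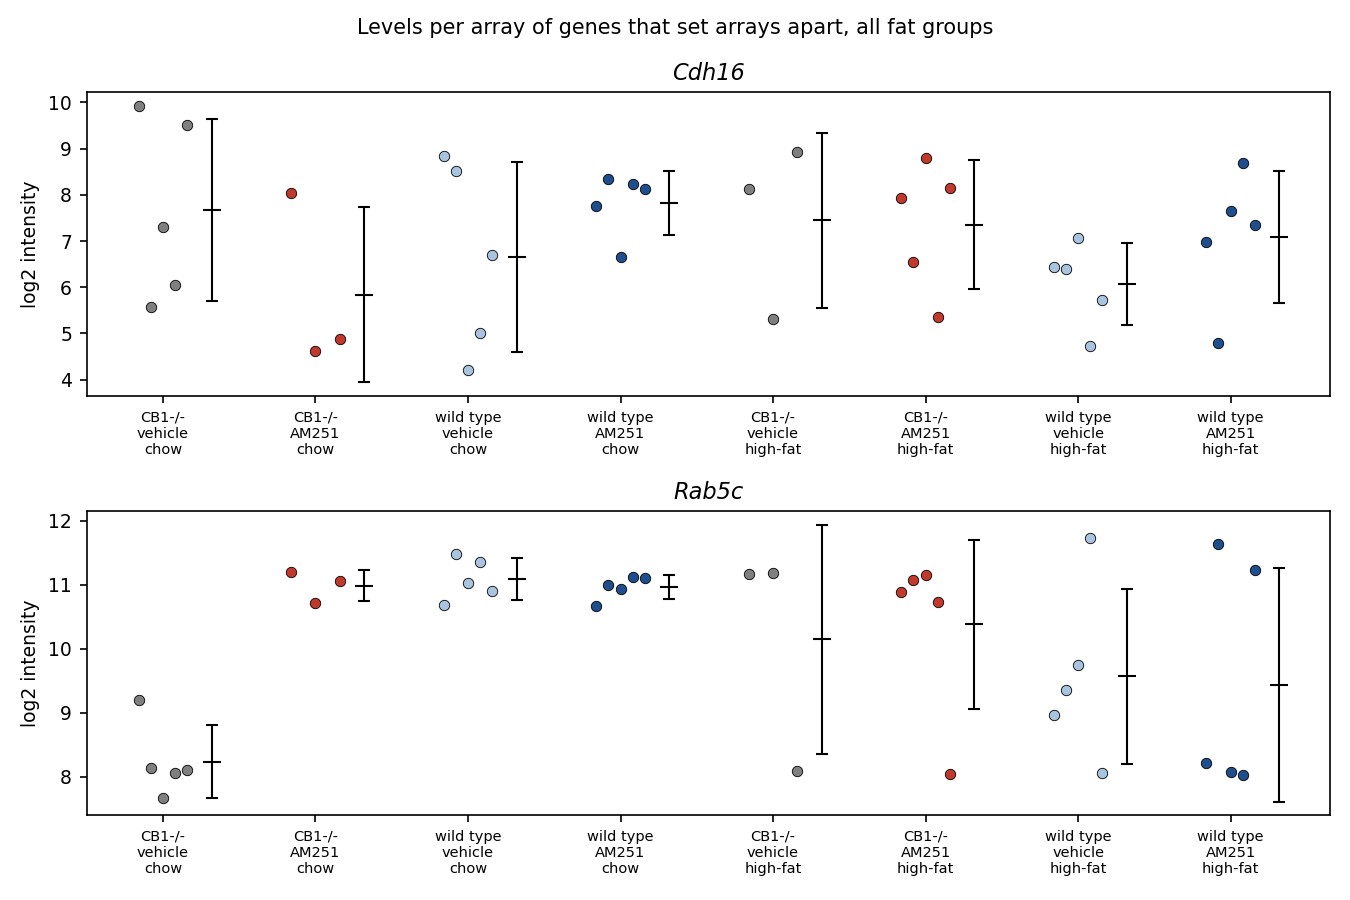
Log2 intensity of Cdh16 (top) and Rab5c (bottom) in every fat array by genotype, treatment and diet; points are arrays and bars are mean ± SD of 3 or 5 arrays. Cdh16 varies within nearly every group, and Rab5c is low in all 5 chow-fed CB1-/- vehicle arrays, from 7.68 to 9.20, high in the 3 AM251 arrays, from 10.71 to 11.19, and mixed on the high-fat diet.

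Below the threshold, the 9 next genes by p on the higher side were Recql4, Chtf8, N4bp2l2, Gprc5b, Kdm4a, 3000002C10Rik, Gnptab, Sc5d and Klra8, with adjusted p-values from 0.26 to 0.277. Recql4, a DNA helicase, had a log2 difference of 1.25 ± 0.28 (SE), with vehicle arrays from 4.67 to 6.77 and AM251 arrays from 6.64 to 7.47 that overlapped. Gprc5b, an orphan receptor, was at 1.32 ± 0.31 (SE), Chtf8, a subunit of a clamp loader in DNA replication, at 1.26 ± 0.29 (SE), and Gnptab, which tags lysosomal enzymes, at 0.57 ± 0.13 (SE). With Rab5c as a covariate Gprc5b and Chtf8 went to 0.38 and 0.47, while Recql4 had 1.28. Without vehicle arrays 15 and 19 Recql4 went to 0.80, while Gprc5b had 1.20 and Chtf8 1.27. Kdm4a, a histone demethylase, was at 0.57, N4bp2l2 at 0.80, 3000002C10Rik at 0.37 and the natural killer receptor gene Klra8 at 0.36, the latter from dim levels between 2.53 and 3.25. Another probe set of Kdm4a gave only 0.16.

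On the lower side 0 genes passed, and the 12 of smallest p were Abi3, Otx2os1, B3gnt8, Calm3, Rab33a, Tex12, A430078I02Rik, Il17ra, 4933439C10Rik, Pcbp3, F730311O21Rik and Gsdmcl-ps. Their log2 differences lay between -0.80 and -0.37, with adjusted p-values from 0.231 to 0.277. In all 12 the AM251 arrays lay below the vehicle arrays, as in 3.56% of all genes. The 12 were picked by p in this same comparison, so that separation is no further result about them. Abi3, a component of the complex that drives actin branching, read 7.04, 7.33, 7.08, 7.22 and 7.20 under vehicle and 6.50, 6.62 and 6.80 under AM251, a difference of -0.53 ± 0.11 (SE). Il17ra, a chain of the interleukin-17 receptor, was at -0.68 ± 0.17 (SE), B3gnt8, a glycosyltransferase, at -0.72 ± 0.17 (SE), and Calm3, a calmodulin gene, at -0.42 ± 0.10 (SE). None of the 12 belongs to the lipid lists described next.

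The gene lists below were chosen with earlier results of these data known. Their counts beside the shares of all genes are therefore no independent test. Of 19 measured cholesterol synthesis genes 1 passed, Fdps, and 0 fell. All 19 had a positive log2 difference, where 42.3% of all genes did, with a median of 0.40 against -0.03 over all genes. At an unadjusted p under 0.05, 9 were higher and 0 lower, where 3.24% of all genes were higher. Every AM251 array lay above every vehicle array in 5 of the 19, where 2.04% of all genes did so: Fdps, Mvk (mevalonate kinase), Tm7sf2, Ebp and Sc5d, the last 3 of which work on the sterol ring. Sc5d, the desaturase that makes dehydrocholesterol, read 9.42, 10.20, 9.66, 10.09 and 9.78 under vehicle and 10.73, 10.45 and 10.28 under AM251. Its difference was 0.66 ± 0.16 (SE, adjusted p = 0.277). Lss, lanosterol synthase, was at 0.64 ± 0.20 (SE, adjusted p = 0.456) and Pmvk, phosphomevalonate kinase, at 0.59 ± 0.22 (SE, adjusted p = 0.492), both with overlapping groups. The mean level of the 19 genes, relative to the vehicle mean, was -0.44, 0.37, -0.01, 0.19 and -0.10 in vehicle arrays 15 to 19 and 0.66, 0.36 and 0.34 in the AM251 arrays, so vehicle array 16 lay within the range of the AM251 arrays. Array 15 carried part of the difference: the median was 0.25 without it, 0.21 without arrays 15 and 19, where 2 of the 19 were higher at an unadjusted p under 0.05 against 1.36% of all genes, and 0.53 with Rab5c as a covariate. In bulk tissue, more cells of a type and more RNA per cell cannot be told apart.

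Of 26 fatty acid and triglyceride synthesis genes 1 passed, Acacb, and 0 fell. The median log2 difference was 0.31, 23 of 26 were positive, 7 were higher at an unadjusted p under 0.05 (3.24% of all genes) and 0 lower. Groups did not overlap in 4 (2.04% of all genes lay wholly above): Acacb, Acly, Acss2 and Agpat2. Acly, ATP citrate lyase, which makes cytosolic acetyl-CoA, read 9.43, 12.27, 12.40, 11.66 and 11.76 under vehicle and 12.76, 12.70 and 13.26 under AM251. Its difference of 1.40 ± 0.44 (SE, adjusted p = 0.455) went to 0.80 without arrays 15 and 19. Acss2, which makes acetyl-CoA from acetate, was at 1.40 ± 0.43 (SE, adjusted p = 0.449), and the elongase Elovl6 at 1.53 ± 0.44 (SE, adjusted p = 0.4), with array 15 the lowest of all 8 in both. Agpat2, an acyltransferase of triglyceride assembly, was at 0.67 ± 0.21 (SE, adjusted p = 0.456), and Fasn, fatty acid synthase, at 1.06 ± 0.54 (SE, adjusted p = 0.624). Without array 15 alone the difference was 0.57 for Fasn, 0.88 for Acly, 0.89 for Acss2, 1.05 for Elovl6 and 0.46 for Agpat2. The mean level of the list was -0.74 in vehicle array 15, between 0.10 and 0.32 in the other vehicle arrays and 0.58, 0.45 and 0.55 in the AM251 arrays, without overlap. Its median was 0.20 without array 15 and 0.41 with Rab5c as a covariate.

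**Figure D3:**
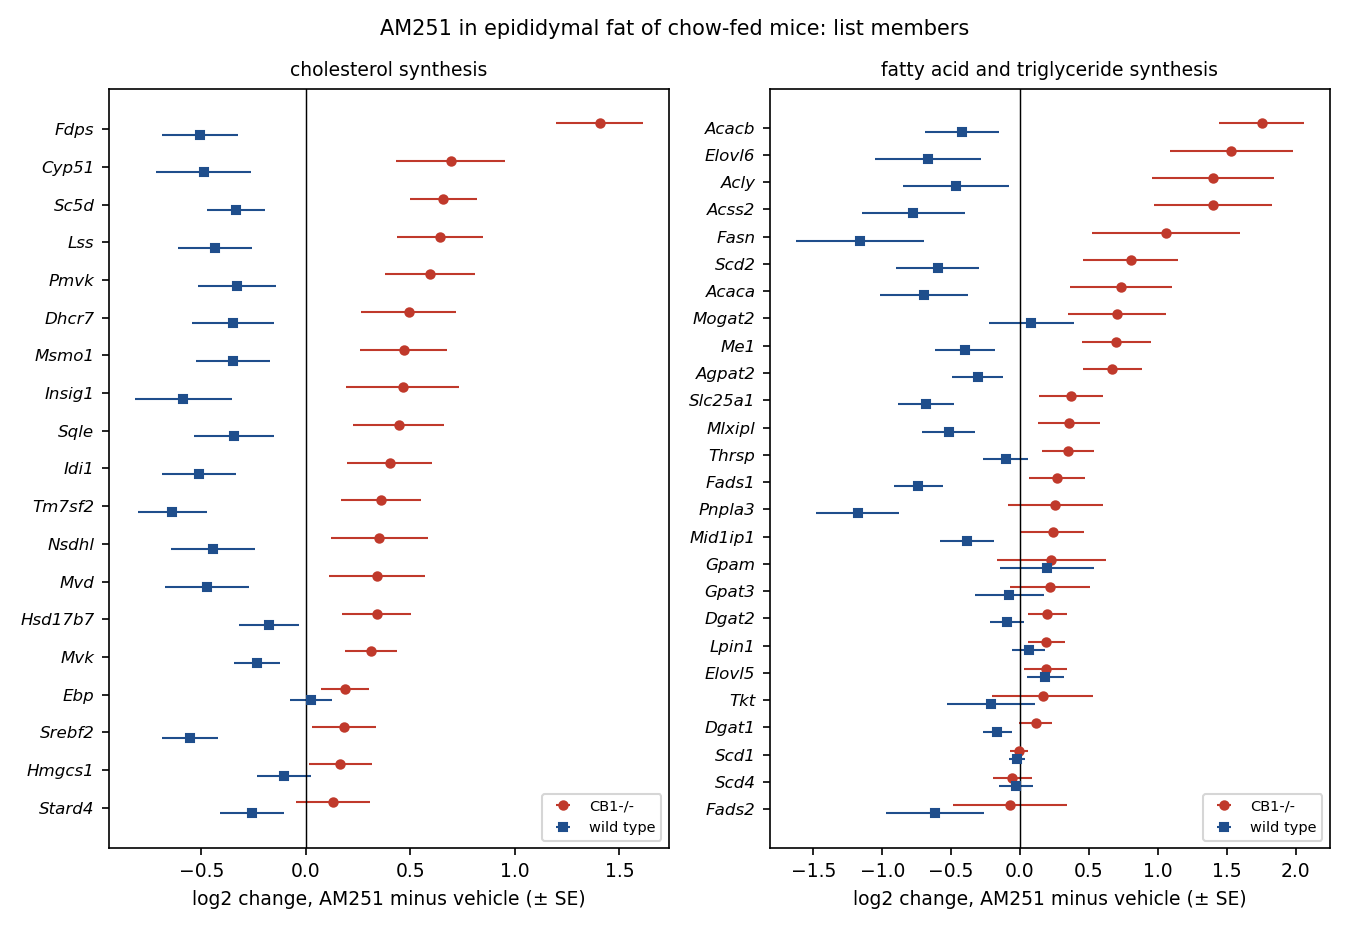
Log2 change with AM251 ± SE for each measured gene of cholesterol synthesis (left, 19 genes) and of fatty acid and triglyceride synthesis (right, 26 genes) in chow-fed fat of CB1-/- mice (circles) and wild-type mice (squares). In knockouts all 19 sterol genes lie to the right of 0, with a median of 0.40, and most wild-type values lie to the left, with a median of -0.35.

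Genes of mitochondrial energy use differed by less. Of 34 oxidative phosphorylation genes 0 passed, the median was 0.15, 32 were positive against 42.3% of all genes, and 10 were higher at an unadjusted p under 0.05 against 3.24% of all genes, with 0 lower. Ndufs1, a subunit of complex I, read 9.93, 10.47, 10.45, 10.43 and 10.22 under vehicle and 10.60, 10.61 and 10.79 under AM251, a difference of 0.37 ± 0.11 (SE, adjusted p = 0.417) without overlap. Cytochrome c, Cycs, was at 0.52 (adjusted p = 0.496), and the complex I subunits Ndufa8 and Ndufb5 were at 0.24 and 0.30 (adjusted p = 0.503 and 0.51). Without arrays 15 and 19 the median was 0.06 and 0 of the 34 were higher at an unadjusted p under 0.05, where 1.36% of all genes were. With Rab5c as a covariate the median was 0.26 and 18 of the 34 were higher, where 5.54% of all genes were. Of 28 genes of fatty acid oxidation and PPAR targets 0 passed, with a median of 0.08. At an unadjusted p under 0.05, 5 were higher and 0 lower, against 3.24% and 4.89% of all genes. Hadha and Hadhb, the trifunctional protein of beta-oxidation, were at 0.34 ± 0.12 and 0.29 ± 0.11 (SE, adjusted p = 0.492 and 0.5), Acads, the short-chain dehydrogenase, at 0.46, and Pex11a, of peroxisome division, at 0.46.

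**Figure D4:**
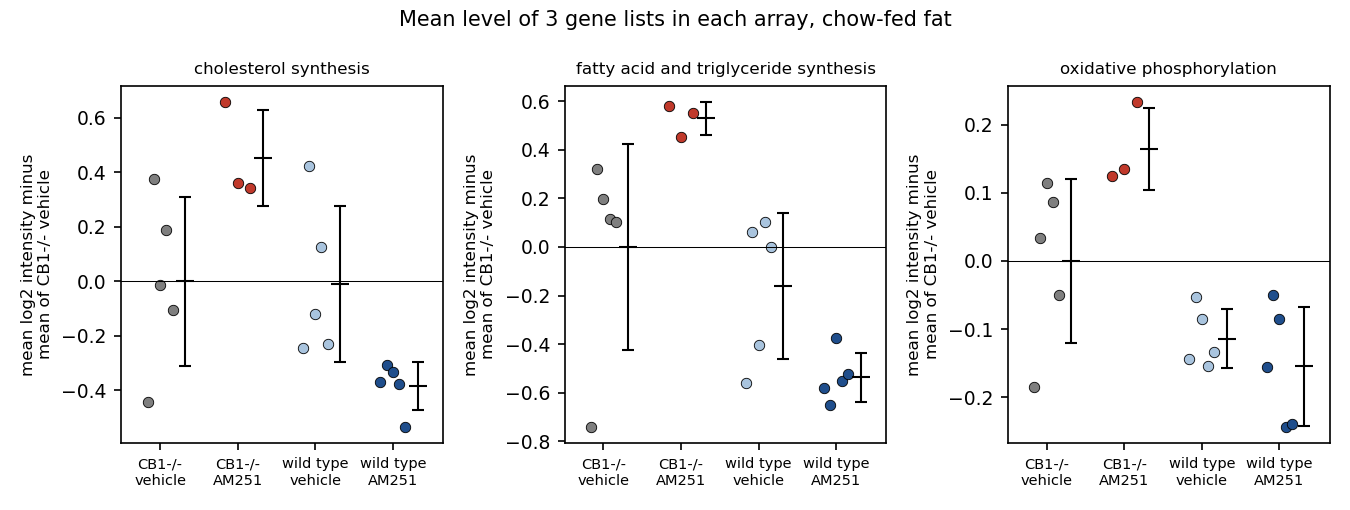
Mean log2 level of the genes of 3 lists in each array of chow-fed fat, relative to the mean of the CB1-/- vehicle arrays; points are arrays and bars are mean ± SD of 3 or 5 arrays. The AM251 arrays of knockouts lie above all vehicle arrays of that genotype for fatty acid synthesis and oxidative phosphorylation, vehicle array 15 lies far below the others, and for cholesterol synthesis the groups overlap, with vehicle array 16 above 2 AM251 arrays.

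In the list of glucose use and insulin signalling 0 of 29 passed and the median was -0.09. At an unadjusted p under 0.05, 5 genes were higher and 1 lower, against 3.24% and 4.89% of all genes. The 4 of smallest p included 3 glycogen genes. Gys2, the glycogen synthase of liver that fat also expresses, read 5.34, 7.74, 7.43, 6.89 and 6.70 under vehicle and 8.27, 8.09 and 8.26 under AM251, a difference of 1.39 ± 0.41 (SE, adjusted p = 0.4). Pygl, glycogen phosphorylase, was at 0.68 ± 0.17 (SE, adjusted p = 0.277) and Ppp1r3b, which targets phosphatase to glycogen, at 1.30 ± 0.35 (SE, adjusted p = 0.311), both without overlap, for Ppp1r3b by less than the rounding of the values. Ppp1r3b was led by AM251 array 20 at 9.50, against 7.89 and 7.96 in the other AM251 arrays and a vehicle maximum of 7.89. Pdk1, which inactivates pyruvate dehydrogenase, was at 0.55 ± 0.16 (SE, adjusted p = 0.414). Without vehicle arrays 15 and 19 the difference was 0.85 for Gys2, 0.45 for Pygl, 1.06 for Ppp1r3b and 0.39 for Pdk1.

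Lipolysis and adipocyte identity genes showed 0 calls. Of 18 lipolysis genes 3 were higher and 1 lower at an unadjusted p under 0.05 (3.24% and 4.89% of all genes), with a median of -0.01: Gys2, which that list also holds, Prkaca, the catalytic subunit of protein kinase A, at 0.33, Ptger3, a prostaglandin receptor that inhibits lipolysis, at 0.36, and Cidec, a protein of large lipid droplets, at -0.20 (adjusted p from 0.4 to 0.597). Of 23 genes of adipocyte identity and uptake 0 were higher and 4 lower at an unadjusted p under 0.05, where 3.24% and 4.89% of all genes were. The median was -0.05, and the 4 lower genes included Sncg at -0.47, the insulin-responsive vesicle protein Trarg1 at -0.41 and Plin4 at -0.23 (adjusted p from 0.477 to 0.575). The mean level of this list, relative to the vehicle mean, was 0.11, -0.02, -0.05, 0.05 and -0.09 in vehicle arrays 15 to 19. In the AM251 arrays it was -0.12, -0.18 and -0.12, without overlap. Lep, leptin, was at -0.37 ± 0.28 (SE, adjusted p = 0.727).

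The endocannabinoid system list, 18 genes, had 0 calls, a median of 0.04, and 2 genes higher and 1 lower at an unadjusted p under 0.05 (3.24% and 4.89% of all genes). Fabp5, an intracellular carrier of fatty acids and anandamide, was at 0.79 ± 0.27 (SE, adjusted p = 0.481), Napepld, which forms N-acylethanolamines, at 0.43 ± 0.19 (SE, adjusted p = 0.56), the lipid receptor Gpr18 at -0.25 (adjusted p = 0.59) and the 2-arachidonoylglycerol hydrolase Abhd6 at 0.23 (adjusted p = 0.639). Cnr1 itself was at 0.24 ± 0.37 (SE, adjusted p = 0.899), and at -0.023 as the mean of its 2 probe sets. Other proteins that AM251 can bind, 5 receptors measured, had 0 calls and a median of -0.10. Drug metabolism genes, 35 measured, had 0 calls and a median of 0.00, with Cyp1a2 at -0.38 and Cyp1a1 at 0.54, 2 P450 enzymes induced through the aryl hydrocarbon receptor, Abcc3 at -0.33 and Cyp2c39 at -0.25 (adjusted p from 0.492 to 0.595).

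Among the remaining lists, thermogenic genes had a median of 0.08, with Cidea, a lipid droplet protein typical of brown fat, at 0.64 ± 0.18 (SE, adjusted p = 0.372) without overlap and Cox8b at 0.51 (adjusted p = 0.608). Interferon-stimulated genes had a median of 0.15 and 3 of 26 higher at an unadjusted p under 0.05 (3.24% of all genes). These were Tap1 at 0.49, Mx2 at 0.24 and Irgm1 at 0.34 (adjusted p from 0.549 to 0.581). Bst2, the next by p, was at -0.56 ± 0.27 (SE, adjusted p = 0.613). Without vehicle arrays 15 and 19, 0 of the 26 were higher, against 1.36% of all genes. The mean level of this list, relative to the vehicle mean, was 0.04, 0.01 and 0.35 in AM251 arrays 20, 21 and 23. Under vehicle it ran from -0.12 to 0.18. Matrix genes had a median of -0.08 and 4 of 32 lower (4.89% of all genes), Col5a1 at -0.37, Bgn at -0.33, Col1a1 at -0.42 and Col6a1 at -0.27 (adjusted p up to 0.587). Glucocorticoid targets had a median of -0.22, with Cebpd at -0.26 and Fkbp5 at -0.64 (adjusted p = 0.502 and 0.524), and circadian genes one of -0.17, with Bhlhe40 at 0.63 (adjusted p = 0.525). Immediate early genes, inflammatory cytokines and cell cycle genes had 0 calls and 0 genes at an unadjusted p under 0.05 in either direction.

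Markers of the other cell types that epididymal fat can hold showed 0 calls in 13 lists with 179 entries, and list medians between -0.17 and 0.11. At an unadjusted p under 0.05, 4 were higher and 3 lower, where 3.24% and 4.89% of all genes were, so neither count exceeds those shares. The lowest median was that of mesothelium, the surface lining of the fat pad, whose mean level ran from 8.90 to 9.27 under vehicle and from 8.58 to 9.04 under AM251. The macrophage list ran from 9.01 to 9.41 and from 9.0 to 9.29, and the list of epididymis and testis, dim in all arrays, from 4.43 to 4.63 and from 4.41 to 4.52. Cdh16, Cdh1 and Epcam are in none of these lists, and the part of that pattern in any difference between treatments was not tested beyond the values without the 2 arrays.

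The comparison with wild-type mice asks whether AM251 did the same where its receptor was present. The difference between genotypes passed for 1 of 19147 genes (0.00522%), Fdps, and 2839 had an unadjusted p under 0.05, of which 1180 were more positive in knockouts (6.16%). Among the 13907 probe sets without 1 gene symbol, which were tested apart, 11 passed. In wild-type fat Fdps read 8.78, 9.77, 9.16, 9.37 and 8.95 under vehicle and 8.62, 8.67, 8.94, 8.64 and 8.62 under AM251, a change of -0.51 ± 0.18 (SE) that did not pass. The 2 genotypes thus had values of opposite sign, and their difference was 1.91 ± 0.28 (SE, adjusted p = 0.00142). It was 1.70 (adjusted p = 0.0195) without arrays 15 and 19 and 1.80 (adjusted p = 0.0199) with Rab5c as a covariate, both past the threshold. Within wild-type fat limma called 0 genes for AM251, with 2559 at an unadjusted p under 0.05.

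A group of genes lay just outside, with adjusted p-values of the genotype difference from 0.0511 to 0.0588. More positive in knockouts were Acacb (2.17 ± 0.41, SE; 1.75 in knockouts and -0.42 in wild types), Ppp1r3b (2.27 ± 0.46, SE; 1.30 and -0.97), Tmem79 (1.76 ± 0.36, SE; 1.08 and -0.68), Lrrcc1 (1.14), the corepressor Atn1 (1.06), Tmem242 (0.92) and Dcaf17 (0.82). More negative in knockouts were Cyp26b1, which breaks down retinoic acid (-2.27 ± 0.48, SE; -0.98 and 1.28), Cilp, a matrix protein (-1.56 ± 0.30, SE; -0.82 and 0.73), Gm4791 (-0.73), Abi3 (-0.73), Rab33a, a small GTPase (-0.63), Olfr1112 (-0.63), Olfr560 (-0.62) and Tdrd12 (-0.59). The count past the threshold is sensitive: it was 75 without knockout vehicle array 16, 34 without wild-type AM251 array 10, 27 without knockout vehicle array 17, and 16 with an intensity trend, with Fdps among them each time.

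For the lipid lists the genotypes stood apart in sign. Of 19 cholesterol synthesis genes all 19 had a more positive value in knockouts, 16 of them at an unadjusted p under 0.05 against the 6.16% over all genes, and 1 passed. The median change was 0.40 in knockouts and -0.35 in wild types, where 11 genes were lower at an unadjusted p under 0.05 against 7.34% of all genes, and the median difference was 0.82. Of 26 fatty acid and triglyceride synthesis genes 25 were more positive in knockouts, 14 at an unadjusted p under 0.05, and 0 passed, with medians of 0.31 and -0.39 and a median difference of 0.75. The mean level of the sterol list in wild-type arrays ran from -0.25 to 0.42 under vehicle and from -0.53 to -0.31 under AM251, on the scale relative to knockout vehicle arrays. That of the fatty acid list ran from -0.56 to 0.10 under vehicle and from -0.65 to -0.37 under AM251, so its wild-type groups overlapped. Oxidative phosphorylation had medians of 0.15 and -0.03.

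The comparison with knockouts on the high-fat diet asks whether the receptor-free change depended on diet. Limma called 0 of 19147 genes (0%) for the difference between diets, with 1122 at an unadjusted p under 0.05 and 957 expected by chance. Of the 3 genes that rose on chow, Tmem242 had a difference of 1.07 ± 0.20 (SE, adjusted p = 0.0599; 0.76 on chow and -0.30 on the high-fat diet), Acacb of 2.02 ± 0.44 (SE, adjusted p = 0.374; 1.75 and -0.27) and Fdps of 1.28 ± 0.30 (SE, adjusted p = 0.45; 1.40 and 0.13). On the high-fat diet Fdps read 8.90, 8.69 and 9.10 under vehicle and from 8.81 to 9.27 under AM251, so those groups overlapped. Rassf6, a member of the Ras-association family, had a difference of 1.63 ± 0.29 (SE, adjusted p = 0.058), with 0.71 on chow and -0.92 on the high-fat diet. On chow its AM251 arrays split: array 20 read 4.11, within the vehicle range of 4.10 to 4.60, and arrays 21 and 23 read 5.65 and 5.39. Without array 20 the limma difference was 2.10 (adjusted p = 1.51e-06), so the value depends on that array. The others named by p were Fabp1, Ice2, Psma1 and Klra8 with differences from 0.47 to 1.40, and 2900079G21Rik, Cdh18, A430078I02Rik, B3gnt8, Olfr669, Gsdmcl-ps, Piwil4 and Ugt2a3 with differences from -0.97 to -0.48 (adjusted p from 0.374 to 0.746). For Ice2 another probe set gave an AM251 change of 0.006 on chow. The sterol list had medians of 0.40 on chow and 0.18 on the high-fat diet, the fatty acid list 0.31 and 0.04, and oxidative phosphorylation 0.15 and -0.07. With 3 arrays on 1 side of each contrast, precision is low.

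The comparison with liver asks whether fat and liver of chow-fed knockouts differed in their response, and here 23 genes passed (0.12%), 10 more positive in fat and 13 more negative. Fdps led with a difference of 1.81 ± 0.32 (SE, adjusted p = 0.00444): in liver it read 12.23, 12.23, 12.28, 11.995 and 12.04 under vehicle and from 11.40 to 11.99 under AM251, a change of -0.40 ± 0.21 (SE, adjusted p = 0.37). Tmem242 differed by 0.93 ± 0.17 (SE, adjusted p = 0.00444), with 0.76 in fat and -0.16 in liver. Also more positive in fat were Rab5c (3.77), Chtf8 (1.59), Kdelr1, which returns proteins to the endoplasmic reticulum (1.53), Tmem79 (1.37), the RNA-binding protein Raly (1.16) and Atic, of purine synthesis (0.97). More negative in fat were Il17ra (-1.16), 4933439C10Rik (-1.08), Il17rc (-1.03), Leng8 (-0.86), Cyp2c29, a liver P450 (-0.84), Gripap1 (-0.77), Abi3 (-0.65) and Dync1li2, a dynein chain (-0.60), with adjusted p-values from 0.0182 to 0.0454. Cyp2c29 had a change of 0.62 in liver (adjusted p = 0.00717) and -0.22 in fat, where its levels were low, between 5.01 and 5.60.

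Liver vehicle array 17 stood apart in several of these genes. Rab5c read 10.69 in that array and between 7.12 and 7.89 in the other liver vehicle arrays, and Kdelr1 read 10.88 against 9.16 to 9.88. Il17ra read 5.36 there and 6.34 to 6.54 in the others. Without it 3 genes passed, among which Fdps (1.78, adjusted p = 0.00806) and Tmem242 (0.86, adjusted p = 0.0163) were 2 and Dpp8, a dipeptidyl peptidase (-0.54, adjusted p = 0.00806), was the other. The sterol list had medians of 0.40 in fat and -0.06 in liver, the fatty acid list 0.31 and 0.22, and drug metabolism 0.00 and 0.15. Acacb had 1.75 in fat and 0.80 in liver (difference 0.96, adjusted p = 0.538).

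**Figure D5:**
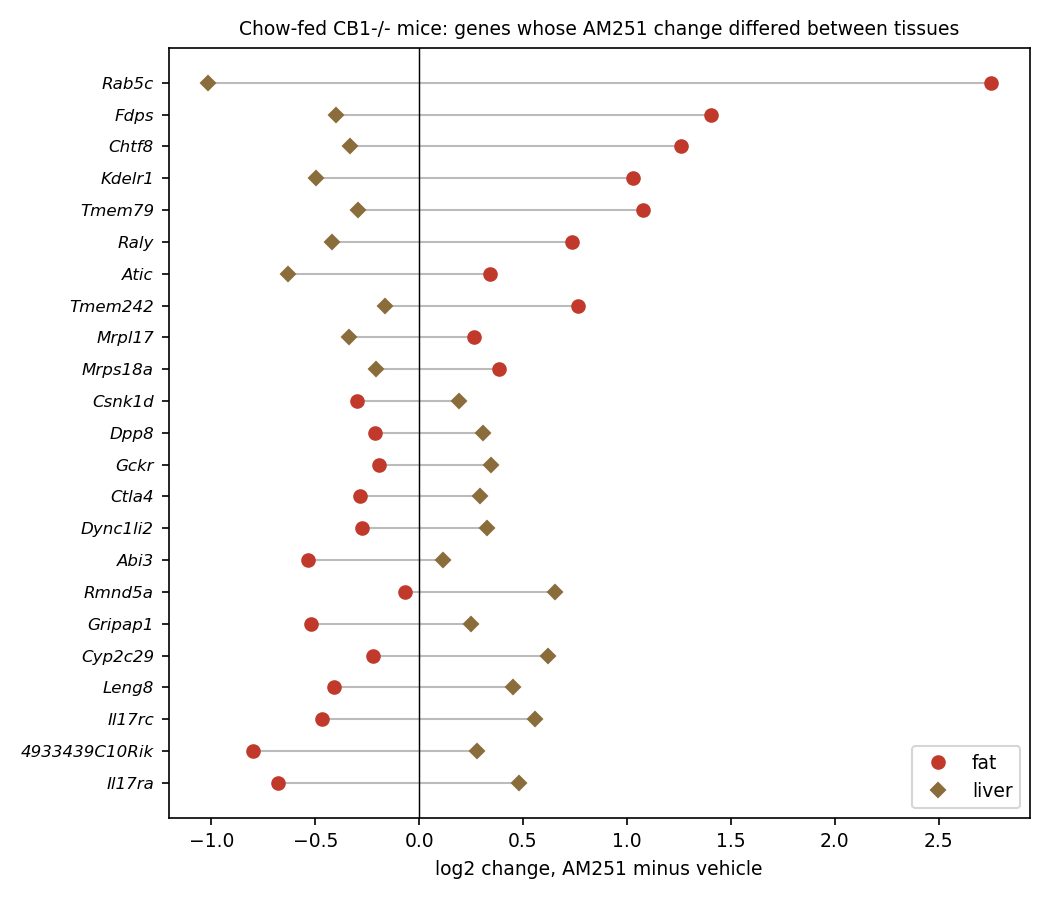
Log2 change with AM251 in fat (circles) and liver (diamonds) of chow-fed CB1-/- mice for the 23 genes whose change differed between tissues, ordered by that difference and joined by a line. Rab5c has the widest gap, 2.75 in fat and -1.02 in liver, and Fdps rises in fat at 1.40 with -0.40 in liver.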

How the data were processed

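Gene expression was measured on 1-colour arrays. The deposited values are linear intensities per probe set, 1 column per array, and the submitters' processing notes name RMA, with a version not given in the sources used here. Log2 of the intensity was taken with no offset or further scaling. Of 38385 probe sets 24478 had 1 gene symbol, 65 several, and 13907 without 1 symbol were tested apart. Symbols were updated by Entrez identifier through the RefSeq table of GRCm38.p6 (24237 probe sets matched). The probe set of highest mean stood for each of 19147 genes, of which 3958 had more than 1.

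Groups came from the titles. Limma 3.58.1 (R 4.3.3) was fitted over all 36 fat arrays in 8 groups, and over all 75 arrays in 16 groups for the tissue difference, with Benjamini-Hochberg adjustment over all genes and a threshold of 0.05. The code was checked on simulated data. Precision is limited by the number of arrays, 3 and 5.

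Genes are named by a rule: up to 12 per direction for the AM251 effect and 8 for each difference, by size among those past the threshold and filled by smallest p, up to 4 genes of smallest p per list, Cnr1 and Nnt. The member arrays were picked by their titles. That choice and the choice of the 33 lists (20 pathway and 13 marker lists, 610 of 725 symbols measured) were made with earlier results of these data known. Genes that describe single arrays (Cdh16, Cdh1, Epcam, Rab5c, Hmox1 and others beside them) were chosen after their values were seen, as were the fits without arrays 15 and 19, with Rab5c as a covariate, and of chow-fed fat within all 75 arrays. Alternatives covered the groups in the fit, a level filter, probe set averaging, quantile normalization, an offset of 16, array weights, an intensity trend, single arrays left out and the mouse number as a block.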

Additional observations from a re-analysis of the deposited data

Results flagged for a closer look

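Within the 5 vehicle arrays of chow-fed knockouts, 1 array stood far from the other 4 in 8 of 111 genes by Dixon's test. Chance flags about 1 in 20 groups, 5.55 of 111, so the count is near what chance gives, and the values are listed without reading a pattern from them. Array 15 was low for Acly (9.43), Acss2 (9.05), Ebp (9.89), Cnr1 (6.15) and Atn1 (6.35). Array 19 was apart for Bhlhe40 (10.02) and Cyp2c39 (5.96), and array 16 for Gprc5b (8.08).

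The response to AM251 differed between genotypes for Fdps, by 1.91 on the log2 scale. Between fat and liver of chow-fed knockouts it differed, more positive in fat, for Rab5c (3.77), Fdps (1.81), Chtf8 (1.59), Kdelr1 (1.53), Tmem79 (1.37), Raly (1.16), Atic (0.97) and Tmem242 (0.93). It was more negative in fat for Il17ra (-1.16), 4933439C10Rik (-1.08), Il17rc (-1.03), Leng8 (-0.86), Cyp2c29 (-0.84), Gripap1 (-0.77), Abi3 (-0.65) and Dync1li2 (-0.60). These differences were tested with limma over all genes. Of the genes listed for the tissue difference, only Fdps and Tmem242 still passed without liver vehicle array 17. All of them still passed without liver vehicle array 16, 18 or 19. When the model held no other groups, Fdps alone among them passed. Chtf8, Kdelr1 and Il17rc also varied with the Rab5c level over the fat arrays.

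Among the 13907 probe sets without a single gene symbol, 2 were higher with AM251 in chow-fed knockout fat: 100080914_TGI_at by 0.82 (adjusted p = 0.0223) and 100114787_TGI_at by 1.98 (adjusted p = 0.0351), with limma over those probe sets. In the same fit 11 passed for the genotype difference, 10 more positive in knockouts and 1 more negative. The largest was 100093936_TGI_at at 2.68 (adjusted p = 0.0121).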

How the results depend on the processing

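The AM251 effect in chow-fed knockout fat counted 3 genes; it was 14 with all 75 arrays in the fit, which held those 3, 0 without vehicle arrays 15 and 19, and 0 to 3 when single arrays were left out. Over 19 settings Fdps passed in 15 (1.19 to 1.5), Acacb in 11 (1.03 to 1.82) and Tmem242 in 9 (0.49 to 0.88), with no change of sign. The genotype difference counted 1 gene, and 5 with only the compared groups, 10 above the median level, 16 with the mean of all probe sets, 2 with array weights, 16 with an intensity trend, 10 with Rab5c as a covariate and 1 to 75 with single arrays left out. The diet difference counted 0, and 1 after quantile normalization (Rassf6), 2 with array weights (Rassf6 and Tmem242) and 0 to 2 with single arrays left out. The tissue difference counted 23, and 2 with only the compared groups, 39 above the median level, 7 with array weights and 3 to 52 with single arrays left out. With the mouse number as a replicate block it counted 40, which held all 23; same-numbered fat and liver arrays had correlations of -0.05 to 0.20 over 8 mice, and 4 of 8 correlated best with their own number, so the numbers are not shown to pair the samples. The cause of these shifts in counts was not tested. Cnr1 changed sign with the probe set: its AM251 effect was -0.28 with all 75 arrays, where the other of its 2 probe sets is the brighter, and -0.023 with the mean of both, and its tissue difference was 0.027 with that mean. Groups of 3 and 5 arrays limit what could be detected.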
